A study of Amaranthus hybridus and Amaranthus hypochondriacus with 18 samples.

Results

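The 100 transcripts described here are those of *Amaranthus hypochondriacus* leaves that stood highest above the controls under salt stress and under water deficit alike. They were selected on the count values themselves. A transcript was a candidate if its log2 CPM (CPM, read counts relative to the library total, scaled between libraries by the trimmed mean of M values, TMM, with a prior count of 2) was higher in all 6 stressed libraries than in all 3 control libraries. For each candidate the mean difference from control was taken for each stress, and the 100 candidates with the largest smaller difference were kept. Of 30946 transcripts in the table, 12429 passed the filter on low counts, and 916 of these (7.37%) had all 6 stressed libraries above the controls. The rule left out 9 of them by their assembly component, so that 907 candidates remained. The differences from control therefore describe the choice and are given without a test. The difference between water deficit and salt was not used by the rule and was tested, although the rule sets a floor under both stress levels and both come from the same libraries.

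The study compared leaves of the cultivated *A. hypochondriacus* cv. Nutrisol and of its wild relative *A. hybridus*, both labelled as wild type, in 18 libraries. In *A. hypochondriacus*, 3 libraries came from watered control plants, 3 from salt-stressed plants and 3 from plants under water deficit, each a pool of mature, non-senescent leaves from 3 plants of this single cultivar. Salt-stressed plants received 100 ml of NaCl solution daily, at 0.15 M for 7 days, 0.3 M for 4 days and 0.5 M for 3 days. Plants under water deficit were left without irrigation for 14 days.

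Water deficit and salinity both lower the water potential around the root, so that part of the leaf response to them is shared, while salinity adds the entry of sodium and chloride. When growth and carbon fixation slow down, leaves recycle amino acids, mobilise sugars and turn on genes associated with dormancy and sugar shortage. Genes of the circadian clock and of light signalling, flavonoid enzymes and stress-responsive regulators of transcription are also known to move under both stresses in plants.

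The libraries held 10.9 to 20.5 M (mega) counts, but only 0.320 to 1.50 M outside the 20 most abundant transcripts, with the lowest value in water deficit 2. The median member had 10 counts over the 3 control libraries together and 219 over the 6 stressed libraries, with a range from 54 to 2932 in the latter. In 66 of the 100 members all 3 controls lay under the 0.606 CPM that the filter asked for, so these members passed only through the stressed libraries. There were 2 members with no count in any control and 12 with 1 to 3 counts in all. Transcripts of the photosynthetic apparatus, used to check the tissue label, were abundant in every library, and the 26 of them summed to 4414 to 8277 CPM in controls, 1288 to 1753 CPM under salt and 1917 to 4364 CPM under water deficit. All 3 tested transcripts annotated to plant viruses were present too, at 54.6 to 79.1 CPM in controls, 90.5 to 304 CPM under salt and 42.8 to 150 CPM under water deficit. Neither list had a member among the 100, and their part in the results was not tested. In such bulk samples a lower share of a cell type and less RNA per cell cannot be told apart.

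Names are the descriptions that the authors gave to transcripts they listed as changed under salt. Such an entry was found for 94 of the 100 members. A name other than an uncharacterized or missing one was given for 74 members. Because the authors chose those transcripts on these libraries, counts over named groups are not independent evidence of a direction. Keyword lists of gene functions were matched to these descriptions, and 59 members fell into 15 of the 18 lists.

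Across the 100 members the median log2 difference from control was 1.99 under salt and 1.88 under water deficit, against 0.01 and −0.01 over all tested transcripts. The 2 members without a control count left both medians the same to the second decimal when they were set at their lower bound. The differences ranged from 1.45 to 5.51 under salt and from 1.45 to 4.50 under water deficit. Salt gave the larger difference in 62 members and water deficit in 38. The last 2 members were a chloroplastic isoamylase (DN9350_c0_g1_i1), with a smaller difference of 1.4516, and a transcript described as amino acid binding (DN7826_c0_g1_i1), with 1.4506. The first 2 candidates left outside were an aspartic proteinase-like protein 1 (DN5459_c0_g1_i1), with 1.4496, and the uncharacterized DN3741_c0_g1_i1, with 1.4373. The members thus form the upper end of a continuous series of candidates, with no gap at the border.

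**Figure D1:**
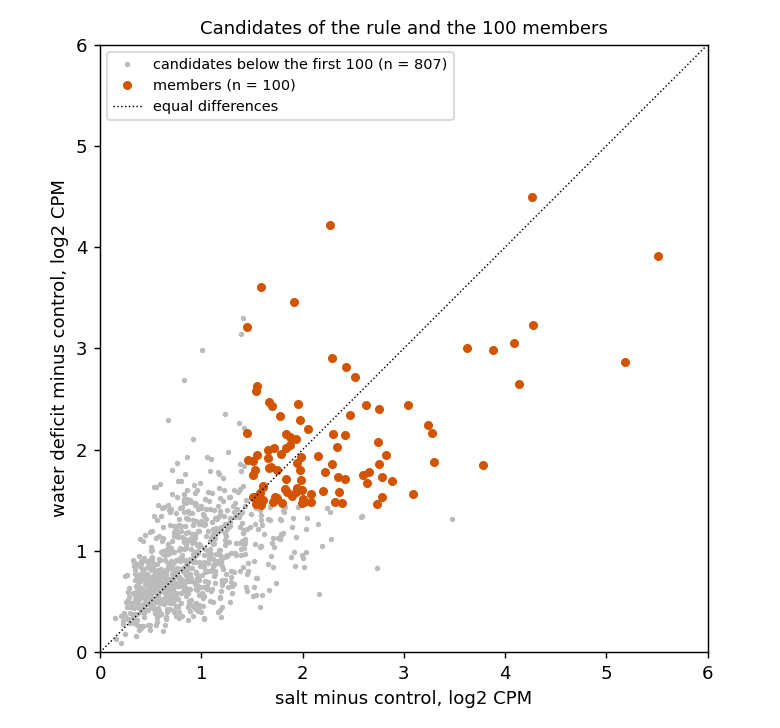
Mean log2 CPM difference from control under salt (horizontal axis) and under water deficit (vertical axis) for the 907 candidates, 1 point per transcript, with the 100 members in orange and a dotted line where both differences are equal. The members fill the corner in which both differences exceed 1.45, and 62 of them lie on the salt side of the line.

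In the model fitted across all transcripts (edgeR, quasi-likelihood test, FDR below 0.01 and an absolute log2FC above 1), 85 members passed as higher under salt than in control, 75 as higher under water deficit, and 68 as both. Over all tested transcripts 3.53% were called higher under salt and 2.75% under water deficit. Since the rule used both contrasts, nothing is read from these counts. There were 8 members called in neither contrast, for example the CCCH zinc finger protein 29-like DN20731_c0_g1_i1 and the albumin-2 protein DN13265_c0_g1_i1.

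**Figure D2:**
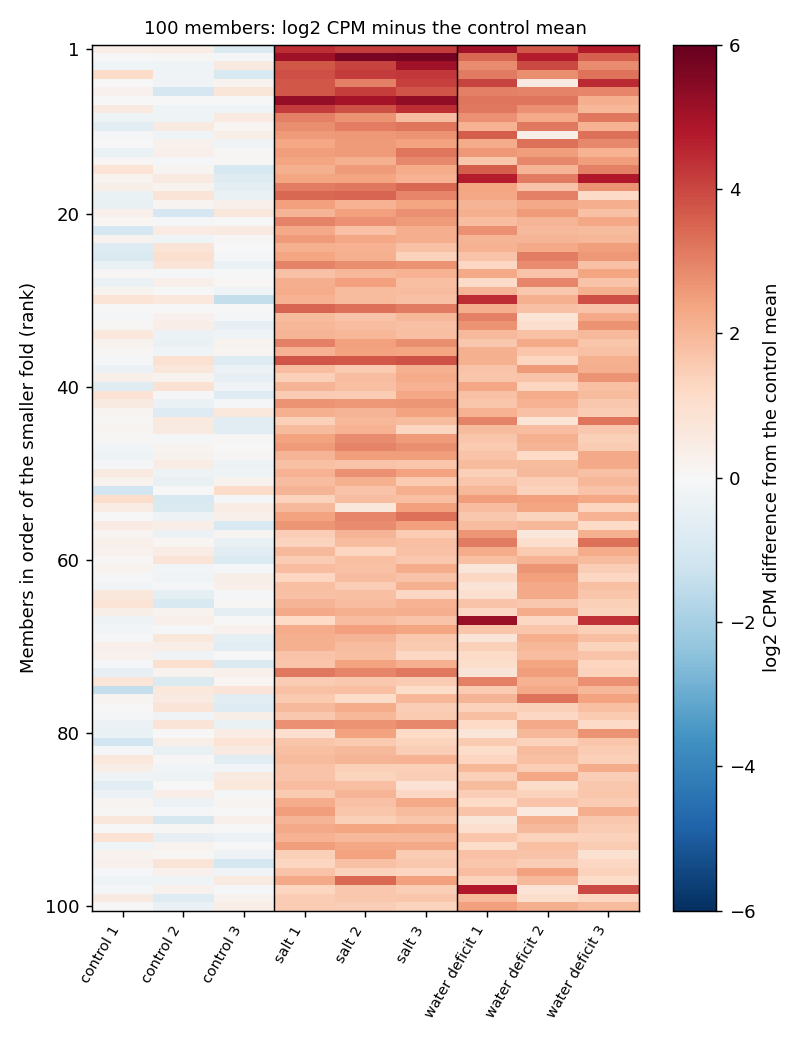
Log2 CPM minus the mean of the 3 controls for the 100 members (rows, in order of the smaller difference) in the 9 libraries (columns); red is above and blue below the control mean. All 6 stressed columns are red throughout by the rule, the salt columns resemble each other, and water deficit 2 departs from water deficit 1 and 3 in single rows, both up and down.

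Defence-related transcripts took 3 of the first 5 places. HSPRO2, described as a nematode resistance protein, was present as 2 members of a single assembly component. DN7314_c0_g2_i1 was at 0.337, 0.0715 and 0 CPM in the controls, at 3.02, 3.71 and 3.84 CPM under salt, and at 1.75, 1.36 and 1.88 CPM under water deficit. DN7314_c0_g1_i1 showed the same order, with 0.0831 to 0.253 CPM in controls, 2.33 to 3.02 CPM under salt and 0.815 to 1.75 CPM under water deficit. In both, every salt library lay above every water deficit library, but the log2FC of water deficit against salt, −1.03 ± 0.25 (SE, n = 3 per group; edgeR FDR = 0.0134) and −0.86 ± 0.25 (edgeR FDR = 0.0303), did not pass the FDR limit.

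The wound-responsive family protein DN5750_c0_g1_i1 had a single count in the controls, in control 3. It was at 1.69, 2.14 and 4.48 CPM under salt and at 0.873, 2.04 and 0.875 CPM under water deficit. The ratio of the summed counts to control was 97.5 under salt, with an exact 95% interval from 17.3 to 3870, and 40.7 under water deficit, with an interval from 6.96 to 1643. These intervals cover counting error only. The groups of both stresses overlapped.

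The P21-like protein DN6908_c1_g1_i1 belongs to the thaumatin-like family, many of whose members accumulate under osmotic stress or attack by fungi. It was at 0.337, 0.286 and 0.415 CPM in the controls and at 5.94, 3.65 and 7.67 CPM under salt. Under water deficit it was at 7.38 CPM in library 1 and 9.94 CPM in library 3, but at 0.544 CPM in library 2, just above the controls. The bifunctional nuclease 2 (DN7530_c0_g1_i1) was far more even, at 1.00 to 1.43 CPM in controls, 6.10 to 7.72 CPM under salt and 5.34 to 5.44 CPM under water deficit. In the list of defence and wounding, 29 transcripts were annotated and tested. Of these, 1 was called higher and 1 lower under water deficit than under salt (1.75% and 2.36% of all tested transcripts), neither of them a member. Against control, 10 were called higher and 13 lower under salt, and 9 higher and 10 lower under water deficit. The list summed to 121 to 140 CPM in controls, 111 to 120 CPM under salt and 96.5 to 153 CPM under water deficit, so the rise of the members was not shared by the whole list.

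Light signalling and the circadian clock contributed 7 members. All 7 members of this list had a negative log2FC of water deficit against salt, with a median of −1.08, against 0.02 over all tested transcripts, and 3 of the 7 were called lower, as were 2.36% of all tested transcripts. Of the 15 annotated and tested transcripts of the list, 2 were called higher and 3 lower under water deficit than under salt, with a median log2FC of −0.44. The median difference from control was 2.75 under salt and 1.85 under water deficit for the 7 members. Of the 15, 10 were called higher and 5 lower under salt than in control, and 8 higher and 5 lower under water deficit. The list summed to at least 68.6 CPM in every control library, but to at most 53.2 CPM in every water deficit library. Under salt it summed to 61.6 to 80.3 CPM, which overlapped the controls. The rise of the members was thus not shared by the whole list.

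Within this group the zinc finger protein At1g68190 (DN214_c0_g1_i1) belongs to the B-box family of light-signalling regulators. It was at 0.337, 0.0715 and 0.499 CPM in the controls, at 4.75, 6.52 and 4.92 CPM under salt, and at 2.94, 2.85 and 2.71 CPM under water deficit. Salt and water deficit did not overlap, and the log2FC between them was −0.95 ± 0.22 (SE; edgeR FDR = 0.00934), which fell short of the limit on the log2FC. A CONSTANS-like 9 protein (DN2969_c0_g1_i1), of the family of the flowering-time regulator CONSTANS, was at 0.0842 to 0.214 CPM in controls, 1.37 to 2.32 CPM under salt and 1.01 to 1.51 CPM under water deficit, and its stress groups overlapped.

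Both CONSTANS-like 16 members were almost absent from the controls. DN21251_c0_g1_i1 had no control count and was at 1.19, 1.00 and 0.864 CPM under salt and at 0.397, 0.272 and 0.263 CPM under water deficit. Against a floor of 3 counts over the 3 control libraries this was at least 12.9-fold higher under salt and at least 3.84-fold higher under water deficit. The log2FC of water deficit against salt was −1.72 ± 0.39 (SE; edgeR FDR = 0.0099). DN29107_c0_g1_i1, with 1 control count, was at 0.548 to 1.38 CPM under salt and 0.175 to 0.408 CPM under water deficit, and its log2FC of −1.93 ± 0.52 (edgeR FDR = 0.0236) was not called. The call on DN21251_c0_g1_i1 was close to the limit, and it was lost in 15 of 17 alternative fits.

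The remaining members of the list had more counts. A light-regulated protein (DN7323_c0_g1_i1) was at 3.96, 3.07 and 4.82 CPM in the controls, at 21.2, 30.4 and 39.3 CPM under salt, and at 12.2, 10.1 and 16.9 CPM under water deficit. It was called lower under water deficit, with a log2FC of −1.20 ± 0.25 (edgeR FDR = 0.00493), a call that was lost in 7 of 18 alternative fits. The transcript described as At5g37260-like (DN12913_c0_g2_i1), in *Arabidopsis* a gene for a MYB protein of the clock-related family, was at 3.56 to 4.71 CPM under salt and 1.44 to 2.58 CPM under water deficit, with 0.249 to 0.842 CPM in controls. Its log2FC of −1.08 ± 0.25 had an FDR of 0.0099 in edgeR, and this call was lost in 13 of 18 alternative fits. BOLTING TIME CONTROL 1 (DN2466_c0_g1_i1), a pseudo-response regulator that controls bolting in beet, was at 0.858 to 1.16 CPM in controls, 4.71 to 6.06 CPM under salt and 3.53 to 4.84 CPM under water deficit, a pair of stress groups that overlapped.

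The other members that regulate transcription were not called between the stresses. There were 3 members described as ICE1, ICE1-like or SCREAM2-like, bHLH proteins that in *Arabidopsis* act in cold signalling and in the formation of stomata. ICE1 (DN10711_c0_g1_i1) was at 0.0831 to 0.143 CPM in controls, 0.595 to 0.756 CPM under salt, and 1.67, 0.272 and 0.919 CPM under water deficit. ICE1-like (DN13416_c0_g1_i1) was at 0 to 0.337 CPM in controls, 0.457 to 0.676 CPM under salt and 0.963 to 1.11 CPM under water deficit. Its stress groups did not overlap, but the log2FC of 0.78 ± 0.37 (edgeR FDR = 0.196) was not called. The GATA zinc finger protein 14 (DN2361_c0_g1_i1) was at 0.0842 to 0.214 CPM in controls, 0.810 to 1.33 CPM under salt and 0.476 to 1.90 CPM under water deficit. Of 10 members in the list of transcription factors, 2 were called lower under water deficit than under salt and none was called higher, and both belong to the light and clock list as well. Of the 45 annotated and tested transcripts of the list, 9 were called lower and 2 higher, at a median log2FC of −0.57. Over all tested transcripts 2.36% were called lower and 1.75% higher, but the list holds only transcripts listed as changed under salt.

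**Figure D3:**
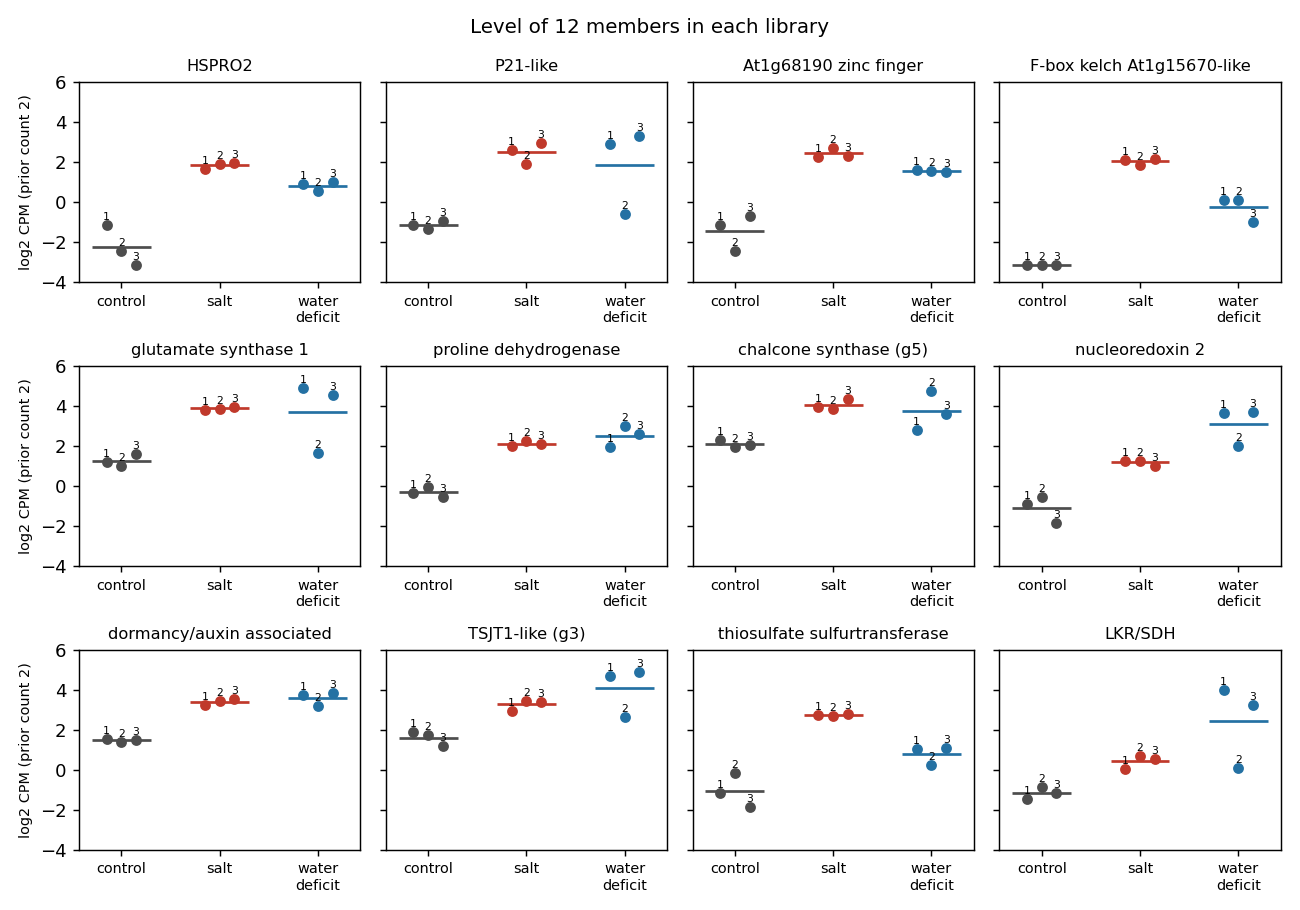
Log2 CPM (prior count 2) of 12 members in the 9 libraries, with 1 point per library numbered by its replicate and a line at the group mean. Water deficit 2 lies near the controls for P21-like and glutamate synthase 1 (0.544 and 2.99 CPM), while salt and water deficit separate fully for the F-box kelch protein and the thiosulfate sulfurtransferase.

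Transcripts of amino acid metabolism included enzymes of both nitrogen assimilation and amino acid breakdown. Glutamate synthase 1 (DN7123_c0_g2_i1), which makes glutamate from glutamine, was at 2.19, 1.86 and 2.91 CPM in the controls and at 14.0, 14.6 and 15.4 CPM under salt. Under water deficit it was at 29.7 and 23.8 CPM in libraries 1 and 3 but at 2.99 CPM in library 2, so that the water deficit group reached from the level of the controls to above that of salt. Its log2FC of water deficit against salt was 0.39 ± 0.43 (edgeR FDR = 0.605).

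Proline dehydrogenase (DN6932_c0_g3_i1), the mitochondrial enzyme that starts the breakdown of proline, was at 0.673, 0.858 and 0.582 CPM in the controls, 3.88, 4.71 and 4.21 CPM under salt, and 3.73, 7.88 and 5.95 CPM under water deficit. The difference from control was 2.43 under salt and 2.82 under water deficit on the log2 scale, and the stress groups overlapped. A chloroplastic branched-chain-amino-acid aminotransferase (DN23247_c0_g1_i1), which interconverts leucine, isoleucine and valine with their keto acids, was at 0.168 to 0.748 CPM in controls, 1.84 to 2.70 CPM under salt and 2.10 to 3.81 CPM under water deficit. A vacuolar cationic amino acid transporter (DN5877_c0_g1_i1) was at 0.357 to 1.09 CPM in controls, 2.44 to 2.74 CPM under salt and 1.63 to 1.98 CPM under water deficit.

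The bifunctional enzyme of lysine breakdown, lysine-ketoglutarate reductase/saccharopine dehydrogenase (DN19721_c0_g1_i1), had the largest log2FC of water deficit against salt among the members. It was at 0.253, 0.429 and 0.332 CPM in the controls, at 0.914, 1.49 and 1.35 CPM under salt, and at 16.0, 0.951 and 9.23 CPM under water deficit. The log2FC was 2.84 ± 0.49 (edgeR FDR = 0.00172), but water deficit 2 lay within the range of the salt libraries. Among the 12 annotated and tested transcripts of amino acid metabolism and transport, this was the one called higher under water deficit, and 1 transcript outside the members was called lower. The median log2FC was 0.39 over the 5 members and 0.02 over the 12.

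Transcripts associated with growth arrest and sugar shortage came from 3 components. A dormancy/auxin associated protein (DN6256_c0_g1_i1), of a family that marks non-growing tissue, was at 2.78, 2.50 and 2.74 CPM in the controls, 9.32, 10.8 and 11.6 CPM under salt, and 13.3, 8.97 and 14.1 CPM under water deficit. The controls were tight, and the stress groups overlapped. An auxin-repressed protein (DN2440_c0_g2_i1), of the same kind, was lower under water deficit than under salt. It was at 0.168 to 0.500 CPM in controls, 2.33, 2.27 and 2.59 CPM under salt and 0.715, 1.63 and 0.700 CPM under water deficit. Its log2FC of −1.42 ± 0.30 (edgeR FDR = 0.00596) was called, and this call was lost in 8 of 18 alternative fits, among them DESeq2 and the fit of only the 6 libraries compared.

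The stem-specific protein TSJT1 was represented by 2 members of a single component. DN7338_c0_g3_i1 was at 3.62, 3.22 and 2.16 CPM in the controls, 7.68, 10.8 and 10.5 CPM under salt, and 26.0, 6.12 and 29.7 CPM under water deficit. DN7338_c0_g2_i1 repeated this shape at 0.758, 1.14 and 0.415 CPM, then 2.15, 3.17 and 3.02 CPM, then 6.43, 1.36 and 7.53 CPM. Water deficit 1 and 3 were above all salt libraries and water deficit 2 was below them in both. The log2FC of 1.12 ± 0.36 and 0.99 ± 0.34 did not pass the FDR limit (edgeR FDR = 0.0513 and 0.0673). In the whole list, 13 transcripts were annotated and tested, all of them listed by the authors as changed under salt. Of these, 0 were called higher and 3 lower under water deficit than under salt (1.75% and 2.36% of all tested transcripts), at a median log2FC of −0.19. Against control, 8 were called higher and 3 lower under salt, and 6 higher and 2 lower under water deficit. The list summed to 213 to 245 CPM in controls, but to 113 to 121 CPM under salt and 81.0 to 135 CPM under water deficit. The members thus do not stand for the list as a whole.

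Chalcone synthase, the first enzyme of the flavonoid pathway, gave 3 members from 1 component of 5 tested transcripts, and the other 2 transcripts of the component were candidates below the border. DN6813_c0_g5_i1 was at 4.88, 3.79 and 3.99 CPM in the controls, 15.6, 14.3 and 20.1 CPM under salt, and 6.99, 27.3 and 11.9 CPM under water deficit. DN6813_c0_g4_i1 was at 2.95 to 4.15 CPM in controls, 9.66 to 15.3 CPM under salt, and 5.72, 16.9 and 11.9 CPM under water deficit. DN6813_c0_g2_i1 was at 0.429 to 0.505 CPM in controls, 2.52 to 4.21 CPM under salt, and 1.75, 4.21 and 3.24 CPM under water deficit. Water deficit 2 was the highest of the 3 water deficit libraries for all 5 transcripts of the component, the opposite of TSJT1 and glutamate synthase 1. The log2FC of water deficit against salt lay between −0.15 and −0.08 in the 3 members. Reads shared between such near copies were not counted, which makes the counts of each copy uncertain.

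Of the 56 annotated and tested transcripts in the list of membrane transport, 9 were members. Their differences from control were 1.48 to 2.29 on the log2 scale under water deficit and 1.51 to 2.00 under salt. The SWEET1 sugar transporter was found in 2 members of a single component, at 0 to 0.286 CPM in controls, 0.540 to 0.972 CPM under salt and 0.715 to 1.36 CPM under water deficit. POLLUX-like 2, an ion channel, was found in 2 members of another, of which DN8261_c0_g3_i1 was at 7.24, 5.15 and 5.82 CPM in the controls, 20.0, 21.2 and 14.3 CPM under salt, and 13.3, 22.2 and 20.0 CPM under water deficit. Its log2FC between the stresses was −0.01 ± 0.22. Potassium transporter 12 was represented by DN20387_c0_g1_i1 and DN7990_c0_g2_i1, and the tonoplast aquaporin TIP4-1 by DN1704_c0_g1_i1, at 0.786 to 1.50 CPM in controls, 2.71 to 3.52 CPM under salt and 2.94 to 5.44 CPM under water deficit. The ABC transporter C family member 13 (DN3379_c0_g1_i1) was at 0.166 to 0.500 CPM in controls, 0.974 to 1.65 CPM under salt and 1.22 to 1.98 CPM under water deficit. No member of this list was called in either direction between the stresses. Of the 56, 3 were called higher and 4 lower under water deficit than under salt (1.75% and 2.36% of all tested transcripts). Against control, 24 of the 56 were called higher and 26 lower under salt, and 9 higher and 19 lower under water deficit. The list summed to 216 to 229 CPM in controls, but to 150 to 153 CPM under salt and 135 to 154 CPM under water deficit.

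Redox-related members split between the stresses. Nucleoredoxin 2 (DN4536_c0_g1_i1), of a thioredoxin-like family of oxidoreductases, was at 0.421, 0.572 and 0.166 CPM in the controls, 2.28, 2.30 and 1.89 CPM under salt, and 12.3, 3.94 and 13.1 CPM under water deficit. All 3 water deficit libraries were above all 3 salt libraries, and the log2FC was 2.23 ± 0.30 (edgeR FDR = 0.000329). A chloroplastic thiosulfate sulfurtransferase-like protein (DN4087_c0_g1_i1), of a family that transfers sulfur to acceptors such as cyanide, showed the opposite, with 0.337, 0.786 and 0.166 CPM in the controls, 6.58, 6.33 and 6.81 CPM under salt and 1.98, 1.09 and 2.01 CPM under water deficit. Its log2FC was −1.86 ± 0.24 (edgeR FDR = 0.00022). The transcript described as oxidative stress isoform 2 (DN5937_c0_g2_i1), with 1 control count, was at 2.38, 1.81 and 2.81 CPM under salt and 1.11, 0.815 and 0.438 CPM under water deficit, and was also called lower under water deficit, with a log2FC of −1.65 ± 0.33 (edgeR FDR = 0.00437). Of 19 annotated and tested transcripts in the redox list, 1 was called higher and 5 lower under water deficit than under salt (1.75% and 2.36% of all tested transcripts). Against control, 10 were called higher and 9 lower under salt, and 3 higher and 7 lower under water deficit. The list holds only transcripts listed as changed under salt.

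Among members linked to protein turnover, the F-box kelch-repeat protein At1g15670-like (DN9253_c0_g1_i1) stood out. In *Arabidopsis* proteins of this family, F-box subunits of ubiquitin ligases, target phenylalanine ammonia-lyase. The transcript had no count in any control, and was at 4.25, 3.52 and 4.38 CPM under salt and at 0.953, 0.951 and 0.394 CPM under water deficit. Against the floor of 3 counts over the controls it was at least 49.6-fold higher under salt and at least 8.26-fold higher under water deficit. The log2FC of water deficit against salt, −2.56 ± 0.29 (edgeR FDR = 0.000157), was the lowest of all members. The BTB/POZ protein At1g55760 (DN46_c0_g1_i1), an adaptor type of ubiquitin ligase subunit, was at 0.286 to 1.09 CPM in controls, 1.96, 2.11 and 1.94 CPM under salt and 5.80, 2.99 and 4.77 CPM under water deficit, and was called higher under water deficit with a log2FC of 1.21 ± 0.25 (edgeR FDR = 0.00461).

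The chloroplast C-terminal-processing peptidase (DN6108_c0_g1_i1), of the family that matures the D1 protein of photosystem II, was at 0.786 to 1.60 CPM in controls, 7.68, 7.20 and 7.45 CPM under salt and 3.65, 5.03 and 3.50 CPM under water deficit. The log2FC of −0.92 ± 0.19 (edgeR FDR = 0.00582) stayed under the limit on its size. Of the 162 annotated and tested transcripts described as chloroplastic or as plastid ribosomal proteins, 6 were members, among them a trigger factor-like protein (DN2186_c0_g2_i1), at 0.253 to 0.500 CPM in controls, 0.972 to 1.79 CPM under salt and 1.09 to 1.36 CPM under water deficit. In that list 61 transcripts were called higher and 96 lower under salt, and 7 higher and 92 lower under water deficit. Over all tested transcripts 3.53% and 2.75% were called higher. The list holds only transcripts that the authors had listed as changed under salt, so these shares are not a like background for it. The members were chosen for being higher, so nothing is read from their place in this list. Between the stresses 3 of the 162 were called higher and 37 lower under water deficit (1.75% and 2.36% of all tested transcripts, with the same limit).

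**Figure D4:**
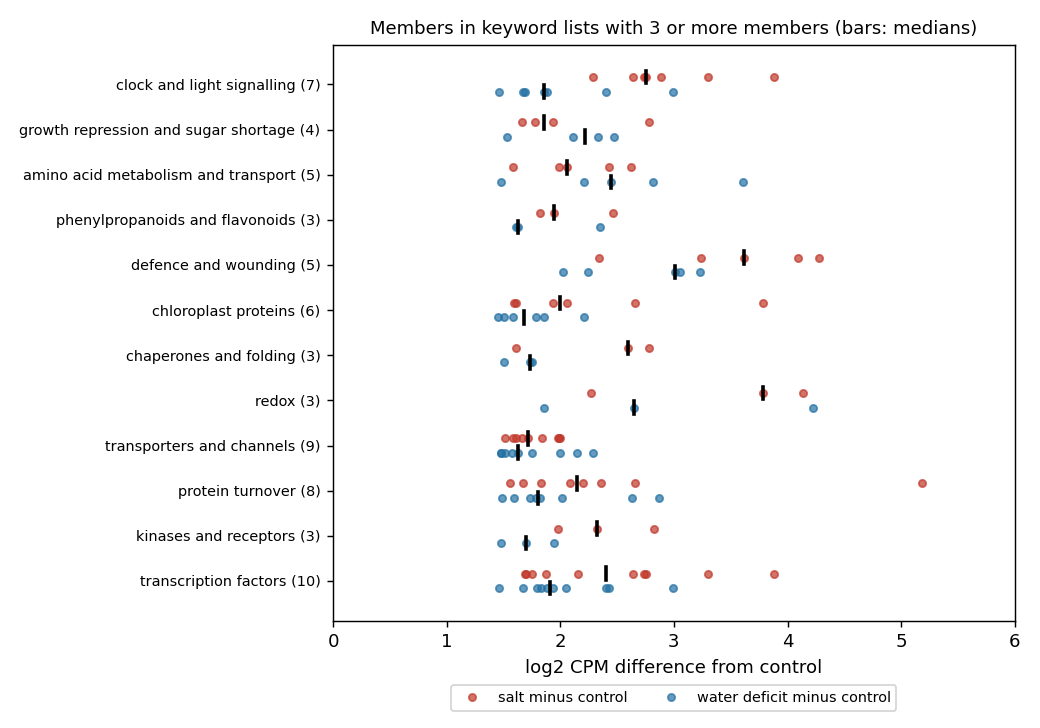
Log2 CPM difference from control under salt (red) and water deficit (blue) for members in the 12 keyword lists with 3 or more members, with the median as a black bar and the number of members in brackets. The medians of the light and clock list are 2.75 and 1.85, whereas in the amino acid list the order is turned, at 2.06 and 2.44.

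DnaJ proteins are co-chaperones of HSP70. Both members described as DnaJ heat shock N-terminal domain proteins came from 1 component, and both had the same shape. DN2713_c0_g2_i1 was at 3.11, 3.86 and 3.49 CPM in the controls, 21.3, 28.4 and 24.5 CPM under salt, and 10.7, 14.8 and 10.4 CPM under water deficit. DN2713_c0_g1_i1 was at 3.22 to 3.70 CPM, 19.0 to 25.5 CPM and 9.80 to 15.6 CPM. All salt libraries were above all water deficit libraries in both. The log2FC of −1.06 ± 0.19 (edgeR FDR = 0.00224) was called for the former, and that of −0.86 ± 0.20 (edgeR FDR = 0.00962) fell short of the size limit for the latter. The call was lost in 5 of 18 alternative fits. In the list of chaperones and folding, 21 transcripts were annotated and tested, all of them listed by the authors as changed under salt. Of these, 8 were called higher and 5 lower under water deficit than under salt (1.75% and 2.36% of all tested transcripts), at a median log2FC of 0.21. Against control, 8 were called higher and 12 lower under salt, and 6 higher and 4 lower under water deficit.

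Further named members were not called between the stresses. CTP synthase-like (DN5181_c0_g1_i1), which makes the cytidine nucleotide CTP from UTP, was at 1.43, 0.858 and 0.332 CPM in the controls, 3.70, 4.98 and 3.94 CPM under salt, and 10.6, 3.53 and 7.00 CPM under water deficit, with a log2FC of 0.77 ± 0.29 between the stresses (edgeR FDR = 0.094). UDP-glucuronate 4-epimerase 1 (DN2878_c0_g1_i1), which supplies galacturonate for pectin, was at 0.337 to 0.665 CPM in controls, 2.49 to 3.29 CPM under salt and 2.46 to 2.85 CPM under water deficit. A lysosomal alpha-mannosidase-like protein (DN12255_c0_g1_i1) was at 1.43 to 2.36 CPM in controls, 6.05 to 9.01 CPM under salt and 5.71 to 8.32 CPM under water deficit. These were the 2 members among the 24 annotated and tested transcripts of the cell wall list. Of the 24, 12 were called lower and 0 higher under water deficit than under salt, at a median log2FC of −1.18. The shares over all tested transcripts were 2.36% and 1.75%. They are not a like background, as the list holds only transcripts listed as changed under salt, and 14 of the 24 were called higher under salt than in control. Neither member was called, with log2FCs of −0.15 ± 0.20 (edgeR FDR = 0.688) and −0.12 ± 0.20 (edgeR FDR = 0.767).

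Receptor-type kinases and starch enzymes were few. The members were an inactive leucine-rich repeat receptor-like kinase (DN3044_c0_g1_i1), a PBS1-type kinase (DN25666_c0_g1_i1) and an ERECTA-type receptor kinase (DN24539_c0_g1_i1), the last at 0.332 to 0.357 CPM in controls, 2.06 to 2.27 CPM under salt and 0.794 to 1.63 CPM under water deficit. A trehalose-phosphate phosphatase (DN15884_c0_g1_i1) was at 0 to 0.286 CPM in controls, 0.548 to 1.00 CPM under salt and 0.318 to 0.951 CPM under water deficit. The chloroplastic isoamylase, a starch-debranching enzyme and the next to last member, was at 0.0715 to 0.337 CPM in controls, 0.777 to 0.864 CPM under salt and 0.544 to 1.11 CPM under water deficit. A polynucleotidyl transferase, ribonuclease H-like protein (DN23324_c0_g1_i1), with 3 control counts, had a ratio of summed counts to control of 17.3 under salt (exact 95% interval from 5.76 to 85.3) and of 10.0 under water deficit (from 3.16 to 51.1). The NPY4-type BTB/POZ protein (DN17079_c0_g1_i1) was at 0 to 0.0842 CPM in controls, 0.320 to 0.648 CPM under salt and 0.397 to 0.919 CPM under water deficit.

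The first member of the ranking had no name. DN7689_c0_g2_i1 was at 0.337, 0.357 and 0.0831 CPM in the controls, 7.40, 6.22 and 6.16 CPM under salt, and 11.2, 4.48 and 9.15 CPM under water deficit, and its neighbour in the same component, DN7689_c0_g1_i1, was at 0 to 0.0831 CPM in controls, 0.378 to 1.01 CPM under salt and 0.544 to 1.09 CPM under water deficit. The second, the uncharacterized DN6068_c0_g1_i1, was at 0.253, 0.286 and 0.249 CPM in the controls, 12.7, 19.2 and 20.3 CPM under salt, and 3.97, 9.78 and 4.42 CPM under water deficit. It was called lower under water deficit than under salt, with a log2FC of −1.60 ± 0.27 (edgeR FDR = 0.00169). In all, 8 components held 2 or 3 members and 17 members between them. Members of a component agreed in the sign of their log2FC between the stresses in every one of the 8, but as they share sequence they do not count as separate evidence. The uncharacterized pair DN6508_c0_g1_i1 and DN6508_c0_g2_i1 had log2FCs of 0.43 and 0.33.

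Over all 100 members, water deficit against salt was called for 15 members, 5 higher (5% of members, against 1.75% of all tested transcripts) and 10 lower (10%, against 2.36%). The median log2FC was −0.16 for the members and 0.02 for all tested transcripts. The log2FC lay within 0.5 of 0 for 54 members, against 64% of all tested transcripts. All 3 salt libraries were above all 3 water deficit libraries in 27 members (15.6% of all tested transcripts), and the reverse held in 7 (12.9%). An uncalled difference does not show that levels were equal, and at the low counts of many members the SE reached 0.53.

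The 5 members called higher under water deficit were the lysine-breakdown enzyme, nucleoredoxin 2, the BTB/POZ protein At1g55760, a universal stress protein A-like protein and a transcript without a description. The universal stress protein A-like DN9716_c0_g1_i1 was at 0.421, 0.357 and 0 CPM in the controls, 1.19, 1.03 and 0.918 CPM under salt, and 6.43, 1.22 and 4.29 CPM under water deficit, with a log2FC of 2.01 ± 0.38 (edgeR FDR = 0.00297). The transcript without a description, DN278_c0_g1_i1, was at 0.0831 to 0.143 CPM in controls, 0.411 to 0.541 CPM under salt, and 5.95, 0.272 and 3.28 CPM under water deficit, with a log2FC of 2.80 ± 0.49 (edgeR FDR = 0.00192). Water deficit 2 was the lowest of the 3 water deficit libraries in all 5. The calls on the lysine-breakdown enzyme, the BTB/POZ protein and the universal stress protein were each lost in 6 of 18 alternative fits, and that on DN278_c0_g1_i1 in 5 of 17.

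The 10 called lower were the F-box kelch protein, the thiosulfate sulfurtransferase, CONSTANS-like 16, oxidative stress isoform 2, the auxin-repressed protein, the light-regulated protein, the DnaJ transcript DN2713_c0_g2_i1, the At5g37260-like transcript and 2 without a name, DN6068_c0_g1_i1 and DN1010_c0_g1_i1. The latter was at 1.11 to 1.35 CPM under salt and 0.159 to 0.815 CPM under water deficit, with 2 control counts, and its log2FC of −1.78 ± 0.41 (edgeR FDR = 0.00979) lost the call in 14 of 18 alternative fits. DN278_c0_g1_i1 and DN1010_c0_g1_i1 are named because they are called, a choice made after their values were seen. The calls on oxidative stress isoform 2 and DN6068_c0_g1_i1 were lost in 3 and 4 of 18 alternative fits. The F-box kelch protein, nucleoredoxin 2 and the thiosulfate sulfurtransferase were called in all 18 alternative fits.

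**Figure D5:**
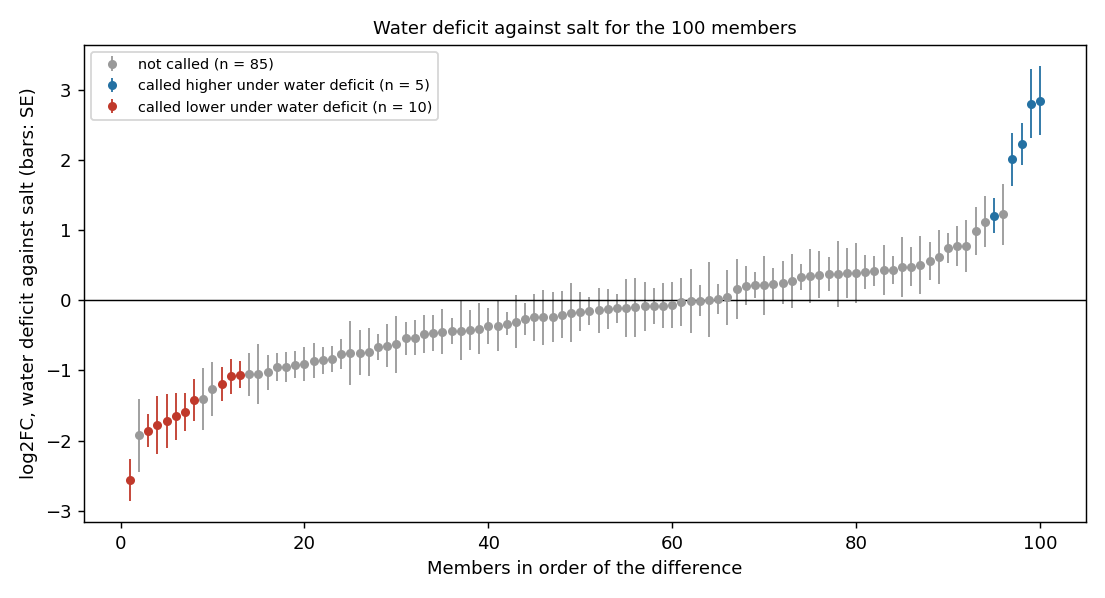
Log2FC of water deficit against salt with its SE (edgeR) for the 100 members in ascending order, with 10 members called lower in red, 5 called higher in blue and 85 not called in grey. Most members lie within 1 of 0, and the called ones are at both ends, from −2.56 to 2.84.

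The number of calls changed when single stressed libraries were left out, which also leaves fewer libraries in a compared group. Without water deficit 2, the shallowest library, 8 members were called higher and 15 lower. Without any 1 of the other 5 stressed libraries, 1 was called higher and 2 to 5 lower. Without any 1 of the controls, 5 were called higher and 7 to 8 lower. The share of all tested transcripts called in these fits is not given here, so nothing particular to the members is read from them.

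The spread within water deficit was wide in part of the members. The median range over the 3 libraries was 0.83 in log2 CPM among the members under water deficit, against 0.44 under salt, and 0.65 and 0.43 over all tested transcripts. A range over 1.5 was found in 20 members under water deficit and in 1 under salt. In 13 of the 20, water deficit 2 was the lowest library, and in 6 the highest. Over all tested transcripts, 9.16% had such a range under water deficit, with water deficit 2 the lowest in 48.7% of them and the highest in 42.6%. The notum homolog DN6832_c0_g2_i1, at 4.61, 1.36 and 4.68 CPM under water deficit, is a further case of the former. Water deficit 2 had the fewest counts outside the most abundant transcripts, and the part of this depth in the spread was not tested.

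In *A. hybridus*, 19 of the 66 distinct names of members also occurred, on 24 transcripts of which 21 could be tested. These names too cover only transcripts that the authors listed as changed. The direction of their differences from control, and the share of them called, were therefore partly chosen. A shared description is also not a pair of orthologs. All 21 had a positive log2FC under water deficit and 12 of 21 under salt. Of the 21, 10 were called higher under water deficit (0.96% of all 9686 tested) and 0 under salt (0.0103%, with 6 of the 21 at an unadjusted p under 0.05 in edgeR). TSJT1-like (Ahybridus_DN4960_c0_g1_i1) was at 2.60, 2.44 and 4.74 CPM in controls, 2.90, 3.58 and 3.05 CPM under salt, and 23.7, 28.7 and 4.02 CPM under water deficit. Nucleoredoxin 2 (Ahybridus_DN8552_c0_g2_i1) was at 0.801, 0.985 and 1.57 CPM in controls, 2.30, 1.38 and 2.05 CPM under salt, and 8.93, 11.2 and 1.79 CPM under water deficit. The DnaJ transcript (Ahybridus_DN7857_c0_g1_i1) was at 3.60 to 4.25 CPM in controls, 1.63 to 2.64 CPM under salt, and 14.7, 9.50 and 19.9 CPM under water deficit. Whether the species differed in these responses was not tested.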

How the data were processed

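Leaf RNA was sequenced as single-end reads on an Illumina sequencer. The authors trimmed the reads (Trimmomatic), assembled each species with Trinity, reduced redundancy with CD-HIT, mapped with Bowtie2 2.3.0, kept reads with a single alignment on either strand and deposited raw counts per transcript, without normalization. All count columns were matched to samples by the labels. Antisense and near-identical transcripts cannot be told apart in such counts.

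The tables were fitted with edgeR 4.0.16 in R 4.3.3, using filterByExpr, TMM, and glmQLFit with glmQLFTest in 1 fit of the 9 *A. hypochondriacus* libraries, with Benjamini-Hochberg adjustment over 12429 transcripts. The SE is the absolute log2FC over the square root of F. Transcripts were called at FDR below 0.01 with log2FC beyond 1 in either direction. The script was tested on simulated data. *A. hybridus* was fitted likewise. DESeq2 1.42.0, other scalings, filters and thresholds, a replicate block and each library left out were alternatives. The members, keyword lists and tests were chosen with earlier results of these data known. Named are the 15 named members with the largest smaller difference, up to 6 called per direction, up to 3 per list, those at the border and in shared components, and 2 unnamed ones of the first 20, and further members added for their function after their values were seen.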

Additional observations from a re-analysis of the deposited data

How the results depend on the processing

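Scaling by library totals alone moved the median log2 difference from control of all tested transcripts to 0.68 under salt and 0.27 under water deficit, and that between the stresses to −0.38. The median of the members then went to −0.57, 3 members were called higher under water deficit than under salt, and 77 of the 100 were found again by the rule. Under the other alternatives 67 to 99 were found again, fewest without control 1. The count called lower fell to 6 with DESeq2, 5 with only the 6 libraries compared and 1 with an absolute log2FC above 2. With each library left out in turn, 1 to 8 members were called higher and 2 to 15 lower, and 49 to 73 passed as higher under water deficit than in control, fewest without control 3.

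Correlations over transcripts between the deviations of same-numbered libraries were −0.09 to 0.06, and between differently numbered ones −0.08 to 0.13. With 3 libraries per group this cannot show whether the numbers pair the samples. The paper names a randomized complete block design, without saying whether the numbers follow its blocks. With a replicate block, 5 members were called higher and 7 lower, with a median log2FC of −0.17. Over 1774 values of single members under the alternatives, 92 calls were lost, 17 were gained and 0 were reversed. Depth limits the members most in controls, where the median was 10 counts over 3 libraries.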

Other observations

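A single low library among the 3 under water deficit was seen in both species for some transcripts of the same description, picked after their values were seen. In *A. hypochondriacus* glutamate synthase 1 (DN7123_c0_g2_i1) was at 29.7, 2.99 and 23.8 CPM under water deficit. In *A. hybridus* a transcript of that description (Ahybridus_DN13309_c0_g1_i1) was at 4.39, 5.01 and 0.298 CPM, with 0.259 to 0.400 CPM in controls. TSJT1-like and nucleoredoxin 2 were lowest in the same libraries, water deficit 2 of the former species and water deficit 3 of the latter. In *A. hybridus* BOLTING TIME CONTROL 1 (Ahybridus_DN24256_c0_g1_i1) did not show it, at 2.12, 1.89 and 2.09 CPM under water deficit and 0.300 to 0.518 CPM in controls. DnaJ and POLLUX-like 2 went the other way and were highest in those same libraries. DnaJ was at 10.7, 14.8 and 10.4 CPM (DN2713_c0_g2_i1) and at 14.7, 9.50 and 19.9 CPM (Ahybridus_DN7857_c0_g1_i1). POLLUX-like 2 was at 13.3, 22.2 and 20.0 CPM (DN8261_c0_g3_i1) and at 4.39, 5.14 and 9.01 CPM (Ahybridus_DN9310_c0_g4_i1). What sets those libraries apart was not tested.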
